A study of Vanessa cardui with 14 samples.

Results

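Hind wings of pupae that were laying down pigment were compared with hind wings of younger, unpigmented pupae in the painted lady butterfly, Vanessa cardui. The pigmenting side held 4 libraries, 2 from the ommochrome stage, when red and orange colour first appeared, and 2 from the melanin stage, when black first appeared. The unpigmented side held 4 libraries, 2 from pupae 72 h after pupation and 2 from pupae 5 d after pupation, before any pigment. These 8 libraries, picked by their stage labels, were part of a series of 14, which also had 2 libraries of last instar larval hind wings and 2 each of red and black regions cut from pupal forewings. All animals had been reared as caterpillars at one temperature and day length, with no treatment. Stage was the only difference between the pupal hind wing groups given in the labels. The column names of the pupal hind wing libraries also hold a letter M that those of the larval ones lack, and its meaning is not known here. The labels put the forewing pieces at the melanin stage in one place and at the ommochrome stage in another. No label states whether replicates were separate animals or pools, so each p-value covers the spread between these libraries, which may be technical.

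Butterfly wing colour sits in scales, each the flat outgrowth of a single epidermal cell, and a scale usually makes one class of pigment. Ommochromes are made from tryptophan by way of kynurenine and give reds, oranges and browns; melanins are made from tyrosine by way of dopa and dopamine and give blacks. In nymphalid wings the scales grow and build their chitinous cuticle before pigment is made, and ommochrome colour comes before melanin. The stage before pigment and the pigment stages therefore differ in the age of the scale and its cuticle as well as in pigment, and these cannot be told apart here.

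RNA was given as FPKM, the sequenced fragments of a gene scaled by its length and by all mapped fragments of the library. The table listed 13876 genes of a de novo assembly, each known by the number of an assembled component and of a gene within it. None (0) of these identifiers matched the reference gene table, so no gene can be given a name or a role, the tissue could not be checked against its markers, and lists of pigment, patterning or cuticle genes could not be applied. No sequence was held for any gene. Summed FPKM ran from 482546 to 671943 in the 8 libraries. Depth, estimated relative to larval replicate 1, was 1.07 to 1.38 on the unpigmented side, 1.58 and 1.87 at the ommochrome stage, and 0.464 and 1.29 at the melanin stage. The shallow library, melanin replicate 1, listed 3641 genes at 0, against 1931 to 2707 in the other 7. Replicates lay furthest apart at 72 h, where the SD of their log2 difference over genes was 1.19, against 0.439 to 0.725 in the 3 other pupal hind wing groups.

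Between the sides 3232 of 10780 tested genes differed (30%), and more were called higher than lower once pigment appeared. By limma at an adjusted p under 0.05, 2250 genes (20.9%) were higher in pigmenting wings and 982 (9.11%) were lower, with a median change of the called genes of 1.23 log2 upward and 1.28 log2 downward. Large changes were a minority in both directions. A change of at least 3 log2 was seen for 204 of the genes called higher and 132 of those called lower, and one of at least 5 log2 for 41 and 22. The estimate of spread also drew on the larval and forewing libraries. A fit to the 8 pupal hind wing libraries alone called 2193 genes in all and kept 65.6% of the 3232 calls. Without the widely spread 72 h stage 2774 genes were called. Values were taken as log2(FPKM + 1), so that the change of a gene at low levels is understated. In whole wings, fewer cells of a type and less RNA per cell cannot be told apart.

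**Figure D1:**
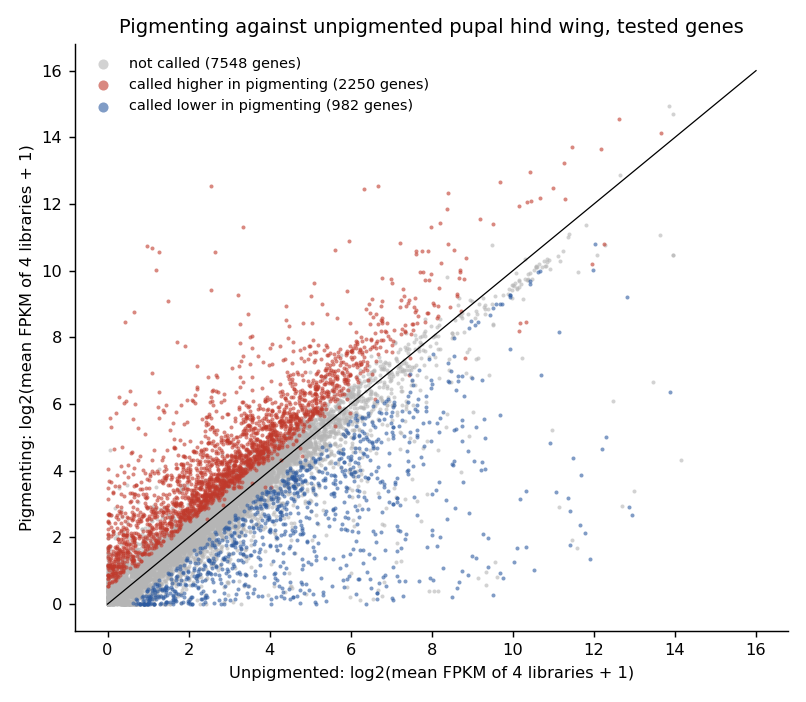
Each point is a tested gene, placed by its mean FPKM in the 4 unpigmented (horizontal) and 4 pigmenting (vertical) hind wing libraries, both as log2(mean FPKM + 1), with the line of equal levels. Nearly all of the 2250 genes called higher lie above the line and the 982 called lower lie below it; calls rest on means of log2 values, so a gene with very unequal unpigmented stages, such as c19797_g1, can lie far from the line, or on its other side, without a call in that direction.

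The genes with the largest rise were low before pigment and among the abundant genes after it. Gene c162_g1 was at 5.42 and 4.05 FPKM at 72 h and 5.96 and 4.05 at 5 d, and at 4615 and 3987 at the ommochrome stage and 7648 and 7514 at the melanin stage. All 4 pigmenting libraries lay far above all 4 unpigmented ones (log2 change 9.94, SE 0.329, limma adjusted p = 6.14e-08). Gene c21362_g2 was at 1.22 and 0 FPKM at 72 h and 0.94 and 1.63 at 5 d. It was at 1565 and 1076 FPKM at the ommochrome stage and 1856 and 2400 at the melanin stage (log2 change 9.82, SE 0.303, adjusted p = 4.97e-08). Both were also low in the larval wing, at 9.84 and 2.34 FPKM for c162_g1 and 2.05 and 0.48 for c21362_g2, and both were abundant in every forewing library, at 2593 to 3776 and 892 to 1186 FPKM.

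The genes with the largest fall went from abundant to 5.58 FPKM or less in every pigmenting library. Gene c28426_g2 was at 305.6 and 453.7 FPKM at 72 h, 341.1 and 477.8 at 5 d, 0.44 and 0.13 at the ommochrome stage and 0.94 and 0.13 at the melanin stage. Its levels within each side were alike and the sides lay far apart (log2 change -8.14, SE 0.248, adjusted p = 4.97e-08). Gene c24510_g1 was at 3113 and 501.1 FPKM at 72 h and 681.8 and 799.3 at 5 d. It was at 1.28 in both ommochrome libraries and at 5.58 and 0.87 in the melanin ones (log2 change -8.41, SE 0.524, adjusted p = 2.46e-06). In the larva c28426_g2 was at 48.7 and 84.1 FPKM and c24510_g1 at 15.6 and 15.5, below each unpigmented pupal library, and neither exceeded 0.26 FPKM in a forewing library.

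How far the rises outnumbered the falls depended on how the libraries were scaled, while single genes kept their direction. With FPKM as deposited, 69.6% of the called genes were higher and the median of all tested genes lay 0.142 log2 higher in pigmenting wings. Median-of-ratios factors moved the median to -0.028 and called 1764 genes upward and 1641 downward (51.8% higher), and with quantile normalization it was -0.058, with 1745 higher and 1727 lower (50.3%). With equal FPKM totals the median was 0.274, with 2972 higher and 842 lower (77.9%). Of the genes called with the deposited values, 1679 of the 2250 higher (74.6%) and 817 of the 982 lower (83.2%) were called in the same direction under all 4 other scalings, and none (0) was called in the opposite direction under any of them. The 4 genes named above were called in their direction under every scaling that tested them, which the size of their changes all but fixed.

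**Figure D2:**
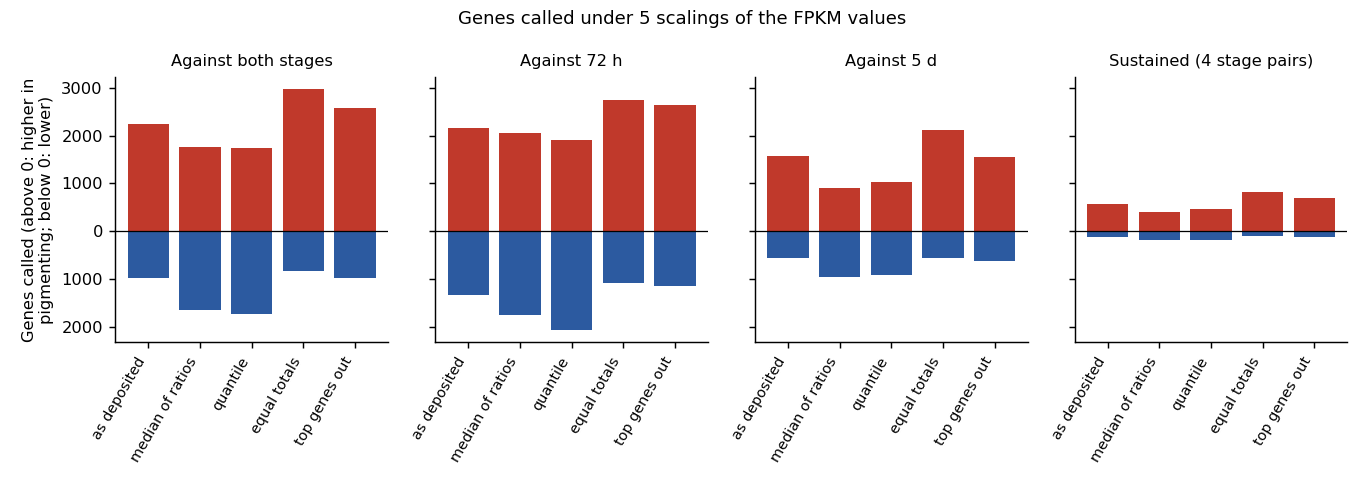
Bars above 0 count the genes called higher and bars below 0 those called lower in pigmenting hind wings, for 4 call rules (panels) and 5 scalings of the FPKM values (bars). The split between the directions moves with the scaling, from 50.3% to 77.9% higher for the comparison with both stages.

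The spread used here is that between replicates of a stage, so a gene that differs between 72 h and 5 d can still be called. When the 4 pigmenting libraries were set against the 4 unpigmented ones and stage differences were counted as spread, limma called 1173 genes, 981 higher and 192 lower, and 35.7% of the original calls remained. Lower genes lost the larger share of their calls. In 1768 of the 10780 genes (16.4%) all 4 pigmenting libraries lay above all 4 unpigmented ones, and in 471 (4.37%) all 4 lay below. Of the genes called higher, 1570 (69.8%) had such separate sides, against 403 (41%) of those called lower.

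Calls were more frequent among abundant genes. Below a mean of 1 FPKM over the 8 libraries, 7.37% of 1479 tested genes were called higher and 5% lower. From 5 to 20 FPKM the shares were 21.9% and 8.06% of 3747 genes, and at 100 FPKM or more they were 36.8% and 22% of 644 genes. The median SE of a gene's change was 0.224 to 0.288 log2 in all 5 classes of level, on a scale that compresses changes at low levels.

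The stages of a side were not equally alike. Over all tested genes, the difference between the sides held 43.9% of the summed squares of the log2 levels in the 8 libraries, the difference between 72 h and 5 d 30.1%, that between the ommochrome and melanin stages 4.44%, and replicates 21.6%. The unpigmented side was thus the more varied one, with 2337 genes (21.7%) called between its stages, against 27 (0.25%) between the ommochrome and melanin stages. Genes called lower in pigmenting wings often differed between the unpigmented stages as well: 589 of 982 (60%) were also called between 72 h and 5 d, against 645 of 2250 (28.7%) of those called higher. These calls share the unpigmented libraries with the side comparison and are given as counts only.

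Each unpigmented stage was then compared with the pigmenting wings alone. Against 72 h, 3510 genes (32.6%) differed, 2167 higher and 1343 lower in pigmenting wings, and against 5 d 2140 genes (19.9%) differed, 1577 higher and 563 lower. Both comparisons use the same 4 pigmenting libraries. Quantile normalization gave 1915 higher and 2070 lower against 72 h, and equal totals 2742 and 1085. Against 5 d the numbers turned to 913 upward and 950 downward under median-of-ratios factors and 1036 and 924 under quantile normalization. The comparison with 5 d rested on few libraries: 1153 genes were called without 5 d replicate 2, 1373 without ommochrome replicate 1, and 1072 in a fit to the 8 pupal hind wing libraries alone. With weights that let the wide 72 h libraries count for less, 2137 genes were called against 72 h.

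Falls from 72 h were led by genes already gone by 5 d. Gene c25222_g3 was at 11824 and 2150 FPKM at 72 h, 17.9 and 3.26 at 5 d and 1.63 to 7.06 in the 4 pigmenting libraries. Its fall from 72 h was called (log2 change -10.32, SE 0.754, limma adjusted p = 5.02e-06), and its change from 5 d was -1.19 log2 (SE 0.754, adjusted p = 0.304). Gene c25543_g5 behaved alike, at 1853 and 11019 FPKM at 72 h, 9.27 and 7.45 at 5 d and 1.61 to 8.49 in pigmenting wings (log2 change from 72 h -9.96, SE 0.627, adjusted p = 1.81e-06). The component of the first holds 2 genes and that of the second 3, so reads could have been divided between similar sequences. Among the rises from 72 h, c21917_g1 had the largest change. It was at 1.38 and 1.02 FPKM at 72 h, 31.5 and 2.37 at 5 d, 2218 and 1927 at the ommochrome stage and 2975 and 2968 at the melanin stage (log2 change from 72 h 10.14, SE 0.673, adjusted p = 2.59e-06). The next was c21362_g2, given above (log2 change from 72 h 10.12, adjusted p = 8.96e-08).

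Falls from 5 d were led by genes that had risen between 72 h and 5 d. Gene c18114_g1 was at 6.16 and 29.7 FPKM at 72 h, 5473 and 7734 at 5 d, 3.14 and 2.11 at the ommochrome stage and 46.5 and 2.46 at the melanin stage (log2 change from 5 d -9.91, SE 0.865, limma adjusted p = 4.67e-05). Gene c27349_g3 was listed at 0 in both 72 h libraries and both melanin libraries, at 1979 and 710.7 FPKM at 5 d and at 0.74 and 3.85 at the ommochrome stage (log2 change from 5 d -9.44, SE 0.503, adjusted p = 2.37e-06). It is 1 of 4 genes of its component. Each has a mean on the unpigmented side that comes almost wholly from 5 d. The largest rises from 5 d were those of c162_g1 (log2 change 9.91, SE 0.403, adjusted p = 4.47e-07) and c21362_g2 (9.52, SE 0.371, adjusted p = 4.47e-07).

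A stricter rule kept the genes that differed whichever stages were paired. A gene was called sustained when ommochrome against 72 h, ommochrome against 5 d, melanin against 72 h and melanin against 5 d were each called in 1 direction. The rule held for 563 genes upward (5.22% of those tested) and 118 downward (1.09%), which are 25% of the genes called higher and 12% of those called lower. Their median change between the sides was 2.22 log2 upward and 2.87 log2 downward. In 70 of the higher and 24 of the lower genes the smallest of the 4 stage differences was still at least 3 log2. The 4 stage pairs share libraries and are not independent of each other. Under median-of-ratios factors 401 genes were sustained upward and 181 downward; quantile normalization left 471 and 194, and equal totals 815 and 108. In all 4 other scalings 383 of the 563 and 105 of the 118 genes stayed sustained. Leaving out ommochrome replicate 1 brought the total of 681 to 286, leaving out the other ommochrome library to 407 and leaving out 5 d replicate 2 to 422. A fit to the 8 libraries alone gave 301.

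Among the sustained genes the smallest stage difference was largest for the same 4 genes that led the comparison of the sides, at 9.50 log2 for c162_g1, 9.17 for c21362_g2, 7.98 for c28426_g2 and 7.72 for c24510_g1. The most abundant sustained higher genes changed less than these. Gene c22150_g1 was at 953.5 and 1855 FPKM at 72 h, 4520 and 4015 at 5 d and 12790 to 14075 in the 4 pigmenting libraries (log2 change 2.49, SE 0.233, limma adjusted p = 3.27e-05). It was at 13776 and 12088 FPKM in the larva, so its level in pigmenting wings was near that of the larval wing, with 72 h the lowest of the hind wing stages. Without the 72 h stage its change was 1.65 log2. Gene c24676_g3 was at 1224 and 626.5 FPKM at 72 h, 2237 and 1415 at 5 d and 6928 to 10516 in pigmenting wings (log2 change 2.66, SE 0.314, adjusted p = 0.000144). It was higher still in forewing regions, where the red libraries read 42694 and 29625 FPKM and the black ones 19514 and 22266. Both genes belong to components of 3 genes.

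On the falling side, the most abundant sustained gene was c19947_g1, at 311.8 and 4690 FPKM at 72 h and 6993 and 6716 at 5 d. It was at 10.8 and 23.1 FPKM at the ommochrome stage and 46.5 and 17 at the melanin stage (change of -7.02 log2 with SE 0.705, adjusted p = 5.14e-05 by limma). The 72 h libraries of this gene were far apart, and the lower one was above all 4 pigmenting libraries, as the rule for naming genes requires. Gene c26578_g8 was at 1781 and 6591 FPKM at 72 h, 90.2 and 70.4 at 5 d and 5.07 to 18.1 in pigmenting wings (log2 change -5.82, SE 0.421, adjusted p = 6.2e-06). Most of its difference came from 72 h, and without that stage its change was -3.12 log2 (adjusted p = 0.000276). It shares its component with 1 other gene.

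**Figure D3:**
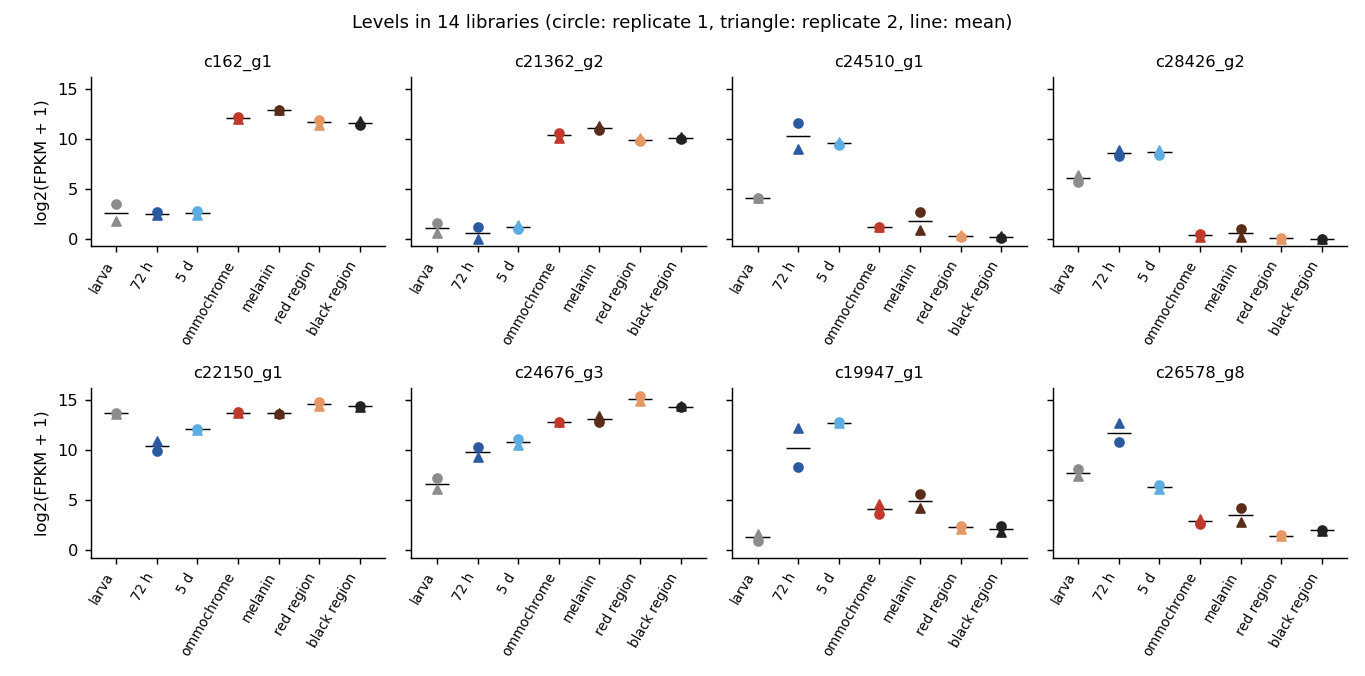
Levels of 8 genes as log2(FPKM + 1) in all 14 libraries, by group; the top row holds the genes with the largest changes between the sides and the bottom row the most abundant sustained genes. By the rule for naming genes, the 4 ommochrome and melanin libraries of each panel lie on 1 side of the 4 libraries of 72 h and 5 d. Gene c22150_g1 is as high in the larva as in pigmenting wings.

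The largest single step of most sustained genes fell between 5 d and the ommochrome stage. This was so for 477 of 563 higher genes (84.7%, median step 1.79 log2) and 105 of 118 lower genes (89%, median step -2.29). Over all tested genes, 49.8% had their largest rise and 22.1% their largest fall at that step. The rule itself favours it, since it asks for a difference from 5 d. Among all genes called lower, 451 of 982 (45.9%) had their largest fall at that step. A further 512 (52.1%) had it between 72 h and 5 d, a share at the background, since 53.3% of all tested genes had their largest fall there. Among all genes called higher, 1393 of 2250 (61.9%) had their largest rise between 5 d and the ommochrome stage. Their largest rise was between 72 h and 5 d for 649 (28.8%, against 23.4% of all tested genes) and between the ommochrome and melanin stages for 208 (9.24%, against 26.7%).

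Forewing libraries entered the filter and the estimate of spread but not these contrasts, and their levels are given as a description. In 426 of the 563 sustained higher genes (75.7%) all 4 forewing libraries lay above all 4 unpigmented hind wing libraries, against 17.2% of all tested genes. The median gene of this group was 2.03 log2 above the unpigmented hind wing in forewings and 0.09 log2 below the pigmenting hind wing (-0.09). In 116 of the 118 sustained lower genes (98.3%) all forewing libraries lay below all unpigmented ones, against 15.2% of all tested genes. For every gene called higher or lower the shares were 51.4% and 54.7%. These counts share the unpigmented libraries with the contrast that chose the genes.

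Larval levels, given as a description, differed between the 2 directions. In 70 of the 118 sustained lower genes (59.3%) both larval libraries lay below all 4 unpigmented pupal libraries, against 7.61% of all tested genes. The median gene of this group had a larval level of -1.67 log2 relative to the unpigmented pupa, while the median over all tested genes was 0.82 log2. High levels at 72 h and 5 d and lower ones after are the rule that chose these genes. The larval counts share the unpigmented libraries with that rule, which favours larval levels below them. In 240 of the 563 sustained higher genes (42.6%) both larval libraries lay above all unpigmented ones, against 51.8% of all tested genes, a share below the background. The larval medians move with the scaling of the libraries, which was not varied for these counts.

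**Figure D4:**
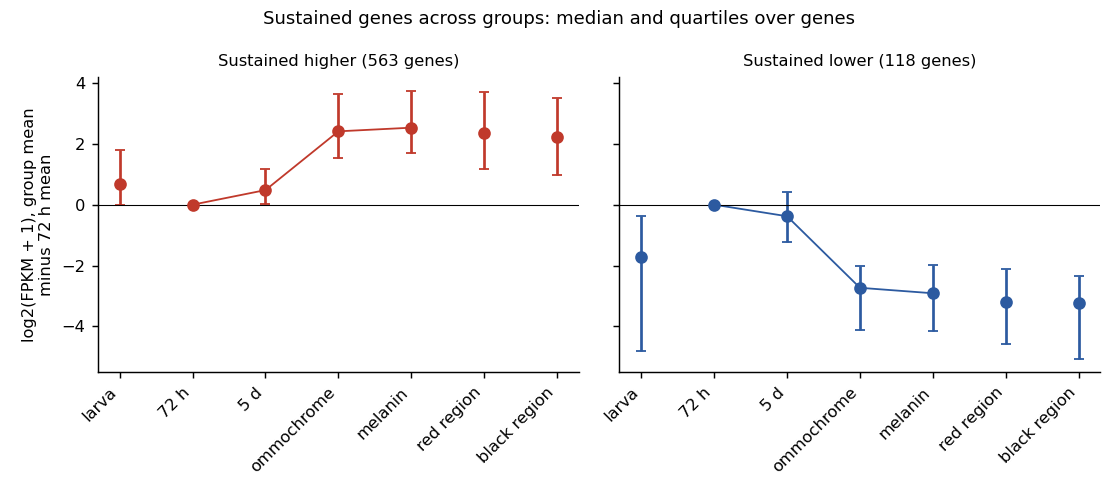
Group means of log2(FPKM + 1) minus the 72 h mean, as the median (point) and quartiles (bars) over the 563 sustained higher and 118 sustained lower genes; the line joins the 4 pupal hind wing stages. The median higher gene stood at 0.48 at 5 d and 2.41 at the ommochrome stage, and the median lower gene at -0.38 and -2.73, with the forewing regions near the pigmenting hind wings in both panels.

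Red and black forewing regions gave a look at colour in libraries outside the hind wing contrast. Between them 81 of all tested genes (0.751%) were called. The sustained higher genes included 18 that were higher in red and 9 higher in black (4.8% of the 563 together), while none (0) of the 118 sustained lower genes was called. Among all genes called higher, 12 were higher in black and 29 in red (1.82%), and among all called lower 1 was higher in red (0.102%). The tests share each gene's estimate of spread, so a gene with a small estimate is more readily called in both, and the part of this in the counts was not tested. The pieces also came from different places in the wing.

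Switches from under 1 FPKM to 5 FPKM or more were rare. In 20 genes every unpigmented library was under 1 FPKM and every pigmenting library was at 5 FPKM or more, with a median pigmenting mean of 23.2 FPKM and a highest of 428.9. All 20 were called higher, which the choice of these genes all but fixed. Of these, 15 were also under 1 FPKM in both larval libraries, 11 were at 5 FPKM or more in all 4 forewing libraries and 4 were under 1 FPKM in all of them. The reverse pattern held for 7 genes, with a median unpigmented mean of 38.5 FPKM. All 7 were called lower, again by the choice, and each was under 1 FPKM in every forewing library. These larval and forewing counts are given without a share over all tested genes. Genes listed at 0 throughout one side and at 1 FPKM or more throughout the other numbered 6 that appeared with pigment and 1 that was lost.

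Genes of the same assembled component can share reads and need not be separate results. Of 1513 components with at least 2 tested genes, 164 had 2 or more genes called, all higher, and 85 had 2 or more called, all lower, while 25 held genes called in both directions. Genes that shared a component were called higher less often than genes alone in theirs, 17.6% against 22.6%, and lower about as often, 9.27% against 9.02%. The difference of these shares was not tested.

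The genes called higher took over much of the measured RNA. They held 7.31% and 7.54% of the summed FPKM in the 72 h libraries, 26.4% and 24.3% at 5 d, 56.6% and 54.5% at the ommochrome stage and 49.2% and 57.3% at the melanin stage. The genes called lower held 20.1% to 38.3% in unpigmented and 4.2% to 4.55% in pigmenting libraries. The direction of these shares follows from how the genes were chosen. In the forewing libraries, which enter the filter and the estimate of spread but not the contrast, the genes called higher held 63% to 64.4%, and in the larval libraries 17.1% and 18.7%. The 563 sustained higher genes alone held 1.87% to 4.26% in unpigmented, 20.6% to 26.3% in pigmenting and 33% to 35.7% in forewing libraries.

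**Figure D5:**
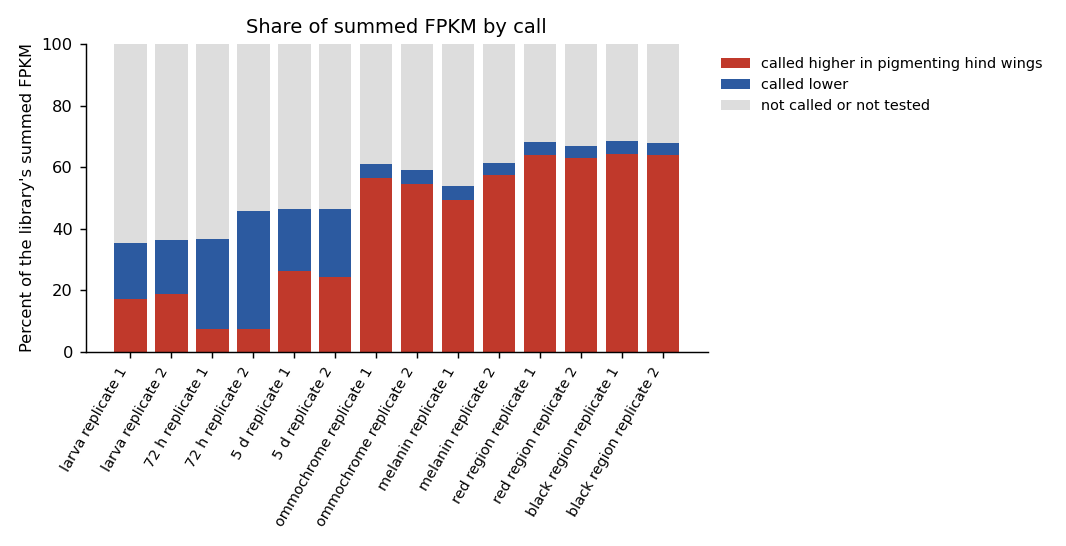
Percent of each library's summed FPKM held by genes called higher, genes called lower and the other genes; bars start at 0 and add to 100. The share of genes called higher is 7.31% to 26.4% in the 4 unpigmented libraries and 49.2% to 57.3% in the 4 pigmenting ones, and 63% to 64.4% in the forewing libraries.

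With FPKM as deposited, pigmenting hind wings had more genes at 1 FPKM or more than unpigmented pupal ones. They were also less dominated by a few genes. The count at 1 FPKM can move with the scaling of the libraries, and it was not recomputed with median-of-ratios factors or quantile normalization. The number of genes at 1 FPKM or more was 8812, 8751, 8855 and 8473 in the unpigmented libraries and 9115, 9083, 9081 and 8959 in the pigmenting ones, without overlap (mean difference 337, exact permutation test over libraries, two-sided, p = 0.0286). The 10 most abundant genes held 31.9% to 38.4% of summed FPKM in unpigmented and 27.2% to 29.8% in pigmenting libraries (difference of means -6.12, exact permutation p = 0.0286). The effective number of genes, the count of equally expressed genes that would give the same entropy, was 379.1 ± 50.6 (SD, n = 4) before and 584.4 ± 28.1 with pigment (exact permutation p = 0.0286). This p is the smallest that 70 splits allow and is also the value after Benjamini-Hochberg adjustment over the 3 measures. Without either ommochrome replicate or melanin replicate 2 the share of the 10 leading genes was no longer called (adjusted exact permutation p = 0.0571). The test takes the 2 libraries of a stage as independent, which makes it too lenient. Forewing libraries, also pigmented, had 8405 to 8739 genes at 1 FPKM or more and an effective number of 374.8 to 460.4. Their 10 leading genes held 29.9% to 32.4%. The larval libraries had 9338 and 9168 genes, effective numbers of 902.1 and 932, and 11.6% and 12.2% in the leading genes. The difference was thus one between the pupal hind wing groups only. The set of leading genes changed too, since 3 of the 10 and 20 of the 50 most abundant genes by mean FPKM were common to both sides. A mean of the unpigmented side can rest on 1 stage, as for c19797_g1, with means of 12.18 FPKM at 72 h and 31470 at 5 d. The same overlap between the stages of a side was not counted. Of the 50 leading genes of pigmenting wings 37 were called higher, and of the 50 of unpigmented wings 18 were called lower and 9 higher. Ranking by the level of one side favours calls toward that side. Of tested genes with a mean of 100 FPKM or more over the 8 libraries, 36.8% were called higher and 22% lower.

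A small set of genes stood between the unpigmented stages. Against 72 h and against 5 d, 112 of 10780 tested genes were called in opposite directions. Of these, 81 were above 72 h and below 5 d, and 31 below 72 h and above 5 d. The comparison of the sides, which averages the stages, called 33 of the 81 and 4 of the 31, against 30% of all tested genes. The 112 became 173 without 72 h replicate 1, 200 without 72 h replicate 2 and 46 in the 8 libraries alone. Gene c19797_g1 was at 6.53 and 17.8 FPKM at 72 h, 35026 and 27908 at 5 d and 584.9 to 2491 in the pigmenting libraries (log2 change 6.71 from 72 h and -4.65 from 5 d, limma adjusted p = 1.45e-05 and 0.000397). Its change between the sides was 1.03 log2 (SE 0.469, adjusted p = 0.129), although both separate changes were large. Gene c20112_g1 followed the same course, from 7.03 and 1.88 FPKM to 1996 and 2793 and then 87.5 to 267.2 (4.98 and -3.96 log2, adjusted p = 5.8e-06 and 6.82e-05). The reverse course was that of c15247_g1, at 712.7 and 1275 FPKM at 72 h, 10.9 and 6.72 at 5 d and 93.4 to 136.2 in pigmenting wings (-3.10 and 3.53 log2, adjusted p = 3.12e-05 and 3.78e-05). Gene c23504_g6 went from 920.4 and 229.2 FPKM to 1.06 and 0.37 and then 5.85 to 26.2 (-5.45 and 2.65 log2, adjusted p = 5.21e-05 and 0.00948). Its rise from 5 d was not called with a pseudocount of 5, in the 8 libraries alone or without 5 d replicate 2 (adjusted p 0.081 to 0.0899).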

How the data were processed

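Poly-A RNA of 14 wing samples had been sequenced; the submitters' processing notes name Bowtie, and the series title a de novo transcriptome. For the assembler, the counting program and any filter the sources used here give nothing. The authors deposited FPKM values, 1 column per library, and whether libraries were scaled further is not stated. Every value column was mapped to a sample by name.

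Of 13876 genes, the 10780 that reached 1 FPKM in 2 or more of the 14 libraries were tested as log2(FPKM + 1) with limma 3.58.1 in R 4.3.3. The model had 7 group means, no covariate, 7 residual degrees of freedom and a spread prior that followed the mean (2.88 prior degrees of freedom). The side contrast was the mean of the ommochrome and melanin groups minus the mean of 72 h and 5 d. Tests were two-sided, with Benjamini-Hochberg adjustment over all genes tested. They were tried on simulated data with the same spread in every group, which cannot show the effect of the wide 72 h group. All groups share 1 estimate of spread, so p-values of contrasts with the wide 72 h group may be too small.

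Total read numbers are unknown. The steps that low FPKM values (0.15 to 3) fall on gave each library's relative depth (Python 3.11.15, NumPy 2.4.6). Of 91 pairs of libraries 59 lay within 0.1 log2 of the fitted depths. In a simulation 14 of 14 libraries were recovered within 0.1 log2. It gave each gene the same length in every library and no reads shared between genes, so the depths fitted here remain estimates.

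For each comparison or call rule the text names up to 2 rising and 2 falling genes, since no table pairs the identifiers with names. They were called, had separate libraries and a mean of at least 5 FPKM on the higher side. They had the largest change (for sustained and opposed genes the largest of the smallest changes) or, among sustained genes, the highest mean. The comparison, the members, these rules and the lists were chosen with earlier results of these data known. Alternatives were other pseudocounts, filters, scalings, sample sets, weights, a replicate block and each library left out.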

Additional observations from a re-analysis of the deposited data

Results flagged for a closer look

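Against 72 h and against 5 d, 112 genes changed in opposite directions. For all 112 the difference between 72 h and 5 d was called by limma, which the rule all but fixes, since that difference spans both changes. Genes with opposite changes numbered 46 in the 8 pupal hind wing libraries alone and 72 with array weights. They numbered 173 without 72 h replicate 1 and 200 without 72 h replicate 2.

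Among 40 sets of 4 libraries of a side (17 named genes and 3 library measures, both sides), 7 had a single library apart from the other 3; chance gives about 1 in 20 where the 4 are alike, and here they come from 2 stages. Gene c24510_g1 stood at 3113 FPKM in 72 h replicate 1, against 501.1 to 799.3 in the other unpigmented libraries, and at 5.58 in melanin replicate 1, against 0.87 to 1.28. Gene c18114_g1 was at 46.51 FPKM in melanin replicate 1, the library of lowest estimated depth, and at 2.11 to 3.14 in the other pigmenting libraries. Gene c25543_g5 was at 11020 FPKM in 72 h replicate 2 and at 1853 in replicate 1. Gene c21917_g1 was at 31.48 FPKM in 5 d replicate 1 and at 1.02 to 2.37 in the other unpigmented libraries. In melanin replicate 2, c24676_g3 was at 10520 FPKM, against 6928 to 7370, and c23504_g6 at 26.23, against 5.85 to 7.23.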

How the results depend on the processing

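The comparison of the sides gave 1173 genes with 4 libraries against 4, and between 2193 and 3814 in the other alternatives, all within 1.5 times of 3232. Against 5 d the count was 1072 in the 8 pupal hind wing libraries alone and 1153 to 2773 with a library left out. Against 72 h it was 2137 with array weights. Sustained genes numbered 301 in the 8 libraries alone and 286 to 923 with a library left out. With the replicate block the sides differed in 3227 genes, and no count moved by over 1.5 times. The replicate numbers pair nothing in the labels, and replicate differences of the 4 stages correlated across genes at -0.116 to 0.012. Of 632 recomputed changes of named genes none (0) reversed and 3 lost their call, all of c23504_g6 against 5 d. The choice of these genes, by large changes or high levels with separate libraries, made a reversal unlikely. The difference in the share of the 10 most abundant genes was -6.98 to -4.8 with a library left out, where its adjusted exact permutation p reached 0.0571. The causes of these shifts were not tested. Counts of genes listed at 0 can depend on depth, which was not tested. They were highest in melanin replicate 1, the library of lowest estimated depth, with 3641 genes.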
